A study of Mus musculus with 185 samples.

Results

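Among the single non-myocyte cells captured from uninjured mouse hearts, 4 carry the label Postn-positive, and each was described against the other 29 cells of the same capture. They are the cells of that capture that carry this label, and they make up 4 of the 33 cells captured from uninjured hearts (12.1%, exact 95% Clopper-Pearson interval 3.40% to 28.2%, counting error only), beside 152 cells from infarcted hearts in the series. Cell 22 is labelled as a resident cell negative for CD31 and CD45, and cells 10, 16 and 6 as resident Tcf21-positive cells, where the numbers are those of the cells in their capture. The 29 other cells are 12 resident cells labelled Postn-negative, CD31-negative and CD45-negative, and 17 resident Tcf21-traced cells. The labels give the mice as C57BL/6 (backcross N=6) and about 5 months of age. The mice carried the R26-eGFP reporter with either Postn MCM/+ or, in the other line, Tcf21 MCM/+, a tamoxifen-dependent Cre set into 1 allele of the gene, and were given tamoxifen. Heart cells negative for CD31 and CD45 were sorted with or without eGFP, dead cells being gated out, and captured singly on the Fluidigm C1 system. The labels name no mouse, and those of the 4 cells do not give the line. Among the infarct cells, the labels set Postn-traced cells apart from Postn-positive cells not called traced, and the label of the 4 does not say how Postn was measured. Of the infarct cells, which came from other captures, the 27 Postn-traced cells of Postn MCM/+; R26-eGFP mice, taken a week after infarction, served as a reference.

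Periostin, the product of Postn, is a secreted matricellular protein that binds collagen and integrins. In the adult heart it is known from the valves and, after injury, from myofibroblasts, the contractile and collagen-secreting form of the fibroblast. Resting cardiac fibroblasts express Pdgfra, the small proteoglycan genes Dcn and Lum, and often Tcf21, a transcription factor of the fibroblast lineage. Valve interstitial cells share genes with tendon and cartilage, such as Sox9, a transcription factor of cartilage, and Comp and Fmod, which encode proteins that bind collagen fibrils.

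Values are log2 (TPM+1), where TPM is the share of a transcript among all transcripts of a cell, scaled to a fixed total. Detection means more than 5 TPM, which is 2.58 on the log2 scale. The paper gives several mice for each group, but the labels name no animal, so no cell can be assigned to a mouse. Every class therefore counts as a single sample, which allows no test. Each of the 4 cells is set against the lowest, median and highest value of the 29. One of the 29 stood apart before any comparison. Cell 11, labelled as a resident CD31-negative and CD45-negative cell, had 7 of 8 blood cell markers detected, among them Ptprc, the gene of CD45 itself, at 9.25, and Cd74 at 14.85. It had 2 of 13 fibroblast genes detected, and Col1a1 and Pdgfra were listed at 0. Values that it sets are given with and without it.

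Postn, on chromosome 3 from 54361109 to 54391037 of mm10, separated the 4 cells from the 29 without overlap, and the 4 fell into a high and a low pair. It was 13.13 in cell 22 and 12.03 in cell 16, or 8955 and 4187 TPM, which made it the sixth and the 21st most abundant gene of these cells. In cell 6 it was 7.10 (136 TPM) and in cell 10 it was 6.08 (66.9 TPM), at ranks 1121 and 1150. Among the 29 it lay between 0 and 3.55 with a median of 1.56, and it passed 5 TPM in 7 of them (24.1%, interval 10.3% to 43.5%). Since Postn is in the label, this separation is a description and not a finding. The Postn-traced infarct cells lay between 9.60 and 14.08, so the high pair was inside their range and the low pair below it.

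**Figure D1:**
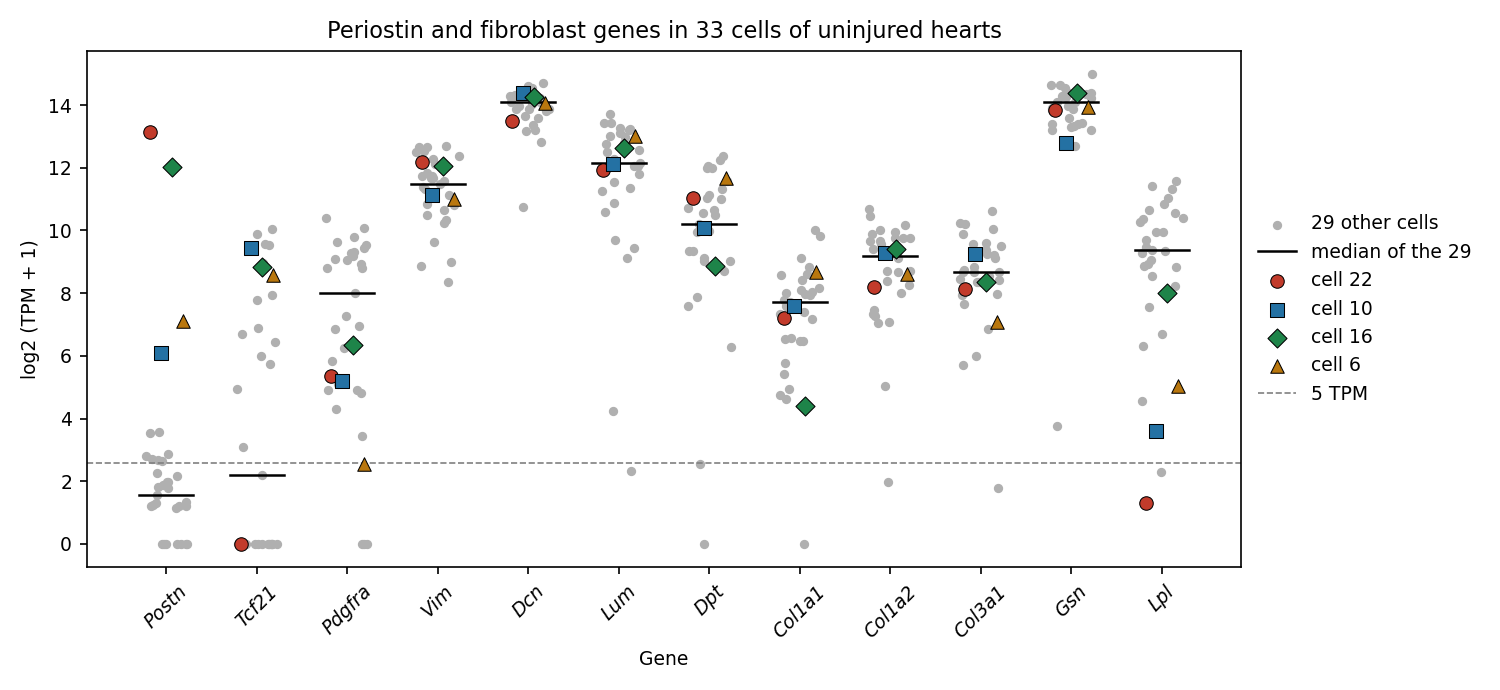
Each dot is the log2 (TPM+1) of a gene (horizontal axis) in 1 of the 33 cells of uninjured hearts, with the 4 Postn-positive cells in colour, the median of the 29 others as a bar and 5 TPM as a dashed line. Postn is above 6 in each of the 4 and at most 3.55 in the 29, while Dcn, Lum, Vim and Gsn of the 4 lie among the others.

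All 4 cells, labelled as fibroblasts, carried most of the fibroblast genes. Of 13 fibroblast genes, 10 were detected in cell 22, 11 in cell 10, 10 in cell 16 and 10 in cell 6. The 29 had 2 to 13 with a median of 11, and 9 to 13 without cell 11. Dcn, the gene of decorin, was 13.49, 14.40, 14.24 and 14.08 in cells 22, 10, 16 and 6, against 10.75 to 14.70 in the 29 (from 12.82 without cell 11). Lum, which encodes lumican, was between 11.93 and 13.02 in the 4, around the median of 12.16 in the 29. Pdgfra, the gene of the PDGF receptor alpha, was lower in the 4 than the median of 8.0, at 5.35, 5.20, 6.35 and 2.55, but 3 of the 29 were listed at 0. The value in cell 6 was just under 5 TPM. Ddr2, a collagen receptor gene, and Thy1, the gene of a surface protein of fibroblasts, were detected in none of the 4, and in 14 and 8 of the 29.

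Tcf21 divided the 4 as their labels do. It was listed at 0 in cell 22, as in 14 of the 29, and was 9.43, 8.82 and 8.59 in cells 10, 16 and 6, where the highest of the 29 was 10.05. Because the label of these 3 cells names Tcf21, the value is a description of them. The 17 cells labelled Tcf21-traced were not all Tcf21-detected, since Tcf21 passed 5 TPM in 14 of all 29.

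In the number of genes detected, the 4 cells lay within the range of the 29. Cell 22 had 2397 genes above 5 TPM, cell 10 had 1909, cell 16 had 2613 and cell 6 had 2513. The 29 had 1674 to 2887 with a median of 2170, so cell 10 was in their lower range, with 25 of the 29 above it, and the others in the upper range. Read numbers per cell are not given in the table, and the number of genes stands in for them.

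Of the 4, cell 22 had the most valve-like genes detected. Of 19 genes on the list, 9 were detected in cell 22, against 1 to 6 in the 29 without cell 11, in which none was, and a median of 3. The 27 Postn-traced infarct cells had 2 to 10 detected with a median of 5, so cell 22 was inside their range. Those infarct cells had more genes over 5 TPM, with a median of 3643 beside 2170 in the 29. In cell 22 Sox9 was 11.02, where the 29 ranged from 0 to 9.28 with a median of 6.18. Comp, the gene of cartilage oligomeric matrix protein, was 9.62, while 28 of the 29 were listed at 0 and the other was at 1.34. Fmod, the gene of fibromodulin, was 9.39, where 26 of the 29 were listed at 0 and the highest was 5.48. Cytl1, which encodes a cytokine-like protein of cartilage, was 11.69, where the highest of the 29 was 7.78 and 26 were listed at 0. Dkk3, a secreted protein of the Dickkopf family, was 10.38, close to the highest of the 29 at 10.13. Tbx20, a transcription factor gene of heart and valve development, was 7.95, and 4 of the 29 were as high or higher. Vcan (versican, a large proteoglycan) at 6.5, Cilp (6.47), a cartilage matrix gene, and Prelp (6.52), a small proteoglycan gene, were within the range of the 29, Prelp under their median of 8.45 with 20 of them higher. Msx1, a homeobox gene, was listed at 0 in all 4 cells and was detected in 6 of the 29, up to 10.40. Scx, Twist1, Acan, Hapln1, Chad, Wif1 and Tnmd, further genes of tendon, cartilage and valve on the list, were listed at 0 in each of the 33 cells, so cell 22 showed some genes of the list and not the whole of it.

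The other 3 cells had fewer of these genes than cell 22. Cell 10 had 0 of the 19 detected, fewer than any of the 28 cells other than cell 11. Cell 16 had 5, and 1 of the 29 had more. These were Sox9 (4.99), Tbx20 (5.47), Vcan (7.36), Prelp (9.5) and Dkk3 (3.05). Cell 6 had 3, as many as the median of the 29, and 13 of them had more. These were Sox9 (8.25), Tbx20 (6.74) and Vcan (7.22). Comp was listed at 0 in cells 10, 16 and 6, and Fmod and Cytl1 were under 5 TPM there. The genes of the list that were more than 1 log2 unit above the highest of the 29 in cell 22 were Sox9, Comp, Fmod and Cytl1, which is 4 of the 10 detected in at least 1 of the 33 cells. Among all 11276 such genes, 232 were that far above in cell 22 (2.06%). Comp was over 5 TPM in no other of the 33 cells, so it was among the 10 through cell 22 alone, and its lead follows from that. Of genes over 5 TPM in at least 1 of the 29, 3 of 9 on the list and 141 of 10952 in all were that far above in cell 22, and in cells 10, 16 and 6 the latter count was 110, 126 and 154. For the list it was 0 in these 3 cells. This and the other lists were chosen with earlier results of these data known. The shares of a list are therefore descriptions and carry no test.

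**Figure D2:**
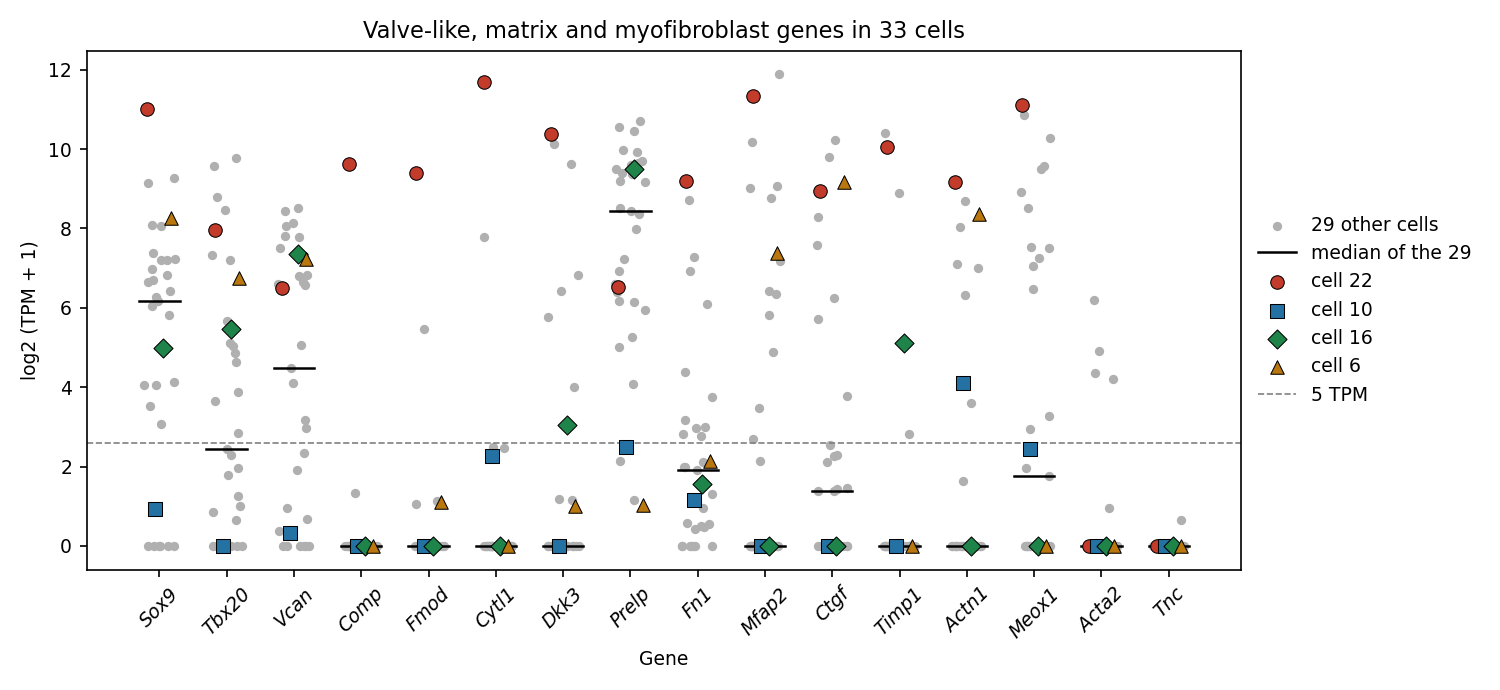
Each dot is the log2 (TPM+1) of a valve-like, matrix or myofibroblast gene (horizontal axis) in 1 of the 33 cells, with the 4 Postn-positive cells in colour, the median of the 29 others as a bar and 5 TPM as a dashed line. Cell 22 lies above all 29 for Sox9, Comp, Fmod, Cytl1, Dkk3, Fn1, Actn1 and Meox1, and all 4 cells are at 0 for Acta2 and Tnc.

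Comp (chromosome 8, 70373558 to 70382066), Fmod (chromosome 1, 134037254 to 134048277) and Cytl1 (chromosome 5, 37735519 to 37739820) lie on different chromosomes of mm10. Across all cells of the series, cell 22 was the one with all 3 of them detected, and a further 8 had 2 of them. These 8 were infarct cells of 4 classes, 3 of them Postn-traced, and in each of the 8 Postn was at least 9.61. Most cells of these 4 classes had Postn over 5 TPM in any case. They were 27 of 27 Postn-traced cells, 28 of 28 Postn-positive cells not called traced, 39 of 44 Tcf21-traced cells and 24 of 29 untraced scar cells. Comp was detected in 3 of the 27 Postn-traced infarct cells (11.1%, interval 2.35% to 29.2%) and Fmod in 7 of the 27 (25.9%, interval 11.1% to 46.3%). Cytl1 was detected in 1 of the 27 (3.70%, interval 0.0937% to 18.97%). Among the other infarct classes, Comp was detected in 12 of 44 Tcf21-traced cells, 6 of 29 untraced cells of the scar, 3 of 28 Postn-positive cells not called traced and 0 of 24 Postn-negative cells. Fmod was detected in 2, 4, 3 and 0 of them in the same order, and Cytl1 in 0, 1, 0 and 2. Capture and injury cannot be told apart in the values of the infarct cells. These 3 genes were set side by side after their values had been seen.

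Several matrix genes outside the valve-like list were also high in cell 22, and apart from Col8a2 those named here had small leads or none. Aspn, the gene of the small proteoglycan asporin, was 11.54 where the highest of the 29 was 11.16. Fn1, the gene of fibronectin, was 9.19 against a median of 1.92 and a highest value of 8.71. Mfap2 (microfibril-associated protein 2) was 11.35, with 1 of the 29 higher, and Mfap4, of the same fibre system, was 9.44, with 2 of the 29 higher. Col8a2, a short-chain collagen gene, was 4.04 and was listed at 0 in all 29 and in the other 3 cells. Of the matricellular, elastic fibre and fibrillar collagen lists, 0 genes were more than 1 log2 unit above the highest of the 29 in cell 22. Of 9 beaded-filament, FACIT and short-chain collagens 1 was, Col8a2, and of 11 small proteoglycans 1 was, Fmod, beside 2.06% of all genes. Col8a2 was counted as detected through cell 22 alone, and its lead follows from that. A smaller lead is common, since 392 of the 11276 genes had any lead over the 29 in cell 22, and 319, 375 and 403 had one in cells 10, 16 and 6. Of the fibrillar collagens, Col1a1 was 7.22, Col1a2 8.20 and Col3a1 8.13, each below the median of the 29, while Col5a2 was 8.73, with 2 of the 29 higher. Of 15 genes of matricellular proteins and fibronectin, 9 were detected in cell 22 and 1 of the 29 had more.

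Cell 22 also had more genes of activated fibroblasts, apart from the myofibroblast list, than any of the 29. The 27 Postn-traced infarct cells had 6 to 15 of 16 such genes detected, with a median of 11. Cell 22 had 10, against 0 to 9 in the 29 with a median of 3. Meox1, a homeobox gene, was 11.10 and Actn1, the gene of an alpha-actinin of stress fibres, was 9.16, both above the highest of the 29 (10.85 and 8.69) but by less than 1 log2 unit, and 0 of the 16 had a larger lead in cell 22. Such small leads are among the 392 given above. Timp1, an inhibitor of matrix metalloproteinases, was 10.05, and 1 of the 29 was higher. Fap, the gene of fibroblast activation protein, was 9.68, again with 1 of the 29 higher. Cthrc1, Tagln, Myl9, Runx1, Spp1 and Sfrp1 were listed at 0.

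Genes of resting fibroblasts were fewer than the median of 11 of the 29 in cells 22, 16 and 6. Of 14, cell 22 had 7 detected, and each of the 28 cells other than cell 11 had more, from 8 to 14. The 27 Postn-traced infarct cells had 5 to 11 with a median of 8. Cell 16 had 10 and cell 6 had 9, and 22 and 24 of the 29 had more. In cell 22 Lpl, the gene of lipoprotein lipase, was 1.29, the lowest of the 33 cells, where the median of the 29 was 9.38. Scara5, Dpep1, Hsd11b1 and C3 were listed at 0, and Smoc2, a matricellular gene, was 5.55 against a median of 11.12. Gsn, which encodes gelsolin, was however 13.83, near the median of 14.09, while the Postn-traced infarct cells ranged from 3.58 to 14.09 with a median of 8.37.

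Cell 10, the cell with the lowest Postn of the 4, stood at the other end. Few microfibril and matricellular genes were detected, 3 of 12 and 3 of 15, with 27 of the 29 above it in both, and Ctgf, Mfap2, Fbn1, Mfap4, Mfap5 and Fbln5 were listed at 0. Over all genes the cell also had few detected, 1909, with 25 of the 29 above it. The 3 matricellular genes that were detected, Sparc (11.56), Sparcl1 (11.47) and Smoc2 (11.62), were above the medians of the 29, and the summed level of that list was 9000 TPM beside a median of 8603 TPM. Mfap5, a microfibril gene, was detected in 26 of the 29 with a median of 10.73. Of the fibrillar collagens, Col1a1 at 7.58, Col1a2 at 9.28 and Col3a1 at 9.24 were near the middle of the 29. Col5a1 was 7.26 against a median of 3.18, with 3 of the 29 as high or higher. Col5a3 was listed at 0 against a median of 4.85. Of the 14 resting genes, 12 were detected, and 4 of the 29 had more. Sfrp1, a secreted Wnt inhibitor, was 9.36, more than 1 log2 unit above the highest of the 29 at 8.11. Beside Postn it was the 1 listed gene that far above in cell 10, where 172 of the 11276 genes were (1.53%). Of 11 adventitial genes, 1 was detected, which was Cd34 at 10.27, where the median of the 29 was 10.27 too.

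Cell 16, with high Postn, was low in many matrix genes and high in a few. Col1a1 was 4.4, and 28 of the 29 were as high or higher, all but cell 11, with a median of 7.72. Fbln1, the gene of fibulin 1, was 0.62 against a median of 8.28. Pcolce, the gene of an enhancer of procollagen processing, was 5.93, the lowest of the 33. In contrast, Adamts2, the gene of a protease that trims procollagen, was 8.41, above the highest of the 29 at 8.12, and Fbln2 (fibulin 2) was 9.54, with 4 of the 29 higher. Of 9 beaded-filament, FACIT and short-chain collagens it had 2 detected, and 26 of the 29 had more. Of the 11 adventitial genes, known from Sca1-positive fibroblasts around vessels, 8 were detected in cell 16, and 1 of the 29 had more. Ly6a, the gene of Sca1, was 11.98, Cd34 11.93, Efhd1 9.48, Ly6c1 8.36, Dpp4 7.49 and Pi16 5.35. Pi16 was however below the median of 8.09, with 19 of the 29 as high or higher. Cd55 at 1.81 and Clec3b at 2.23 were not detected and lay below medians of 4.77 and 3.10. Sema3c, which encodes a secreted semaphorin, was 7.73 in cell 16 and 7.70 in cell 22, both above the highest of the 29 at 7.48. Tgfb3, a TGF-beta ligand gene, was 9.59, where the highest of the 29 was 9.38. Of the listed genes, Postn was the 1 more than 1 log2 unit above the 29, and 216 of the 11276 genes were (1.92%).

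Cell 6 was mixed. Ctgf, the gene of connective tissue growth factor, was 9.16 against a median of 1.38, with 7 of the 29 detected, and Mfap2 was 7.38. Thbs2, the gene of thrombospondin 2, was 8.59 against a highest value of 7.53, and Adamts2 was 9.29 against 8.12. Of listed genes over 5 TPM in the capture, these and Postn were the 3 that lay more than 1 log2 unit above the 29. In cell 6, 244 of the 11276 genes lay that far above (2.16%). At the same time Ogn, the gene of osteoglycin, was listed at 0 where the lowest of the 29 was 2.0 (4.75 without cell 11), and Prelp was 1.03 where the lowest was 1.16 (2.14 without cell 11). Of 11 small proteoglycans 5 were detected, and 27 of the 29 had more. Col1a1 was 8.69, the highest of the 4, and Col3a1 was 7.07, the lowest of the 4.

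**Figure D3:**
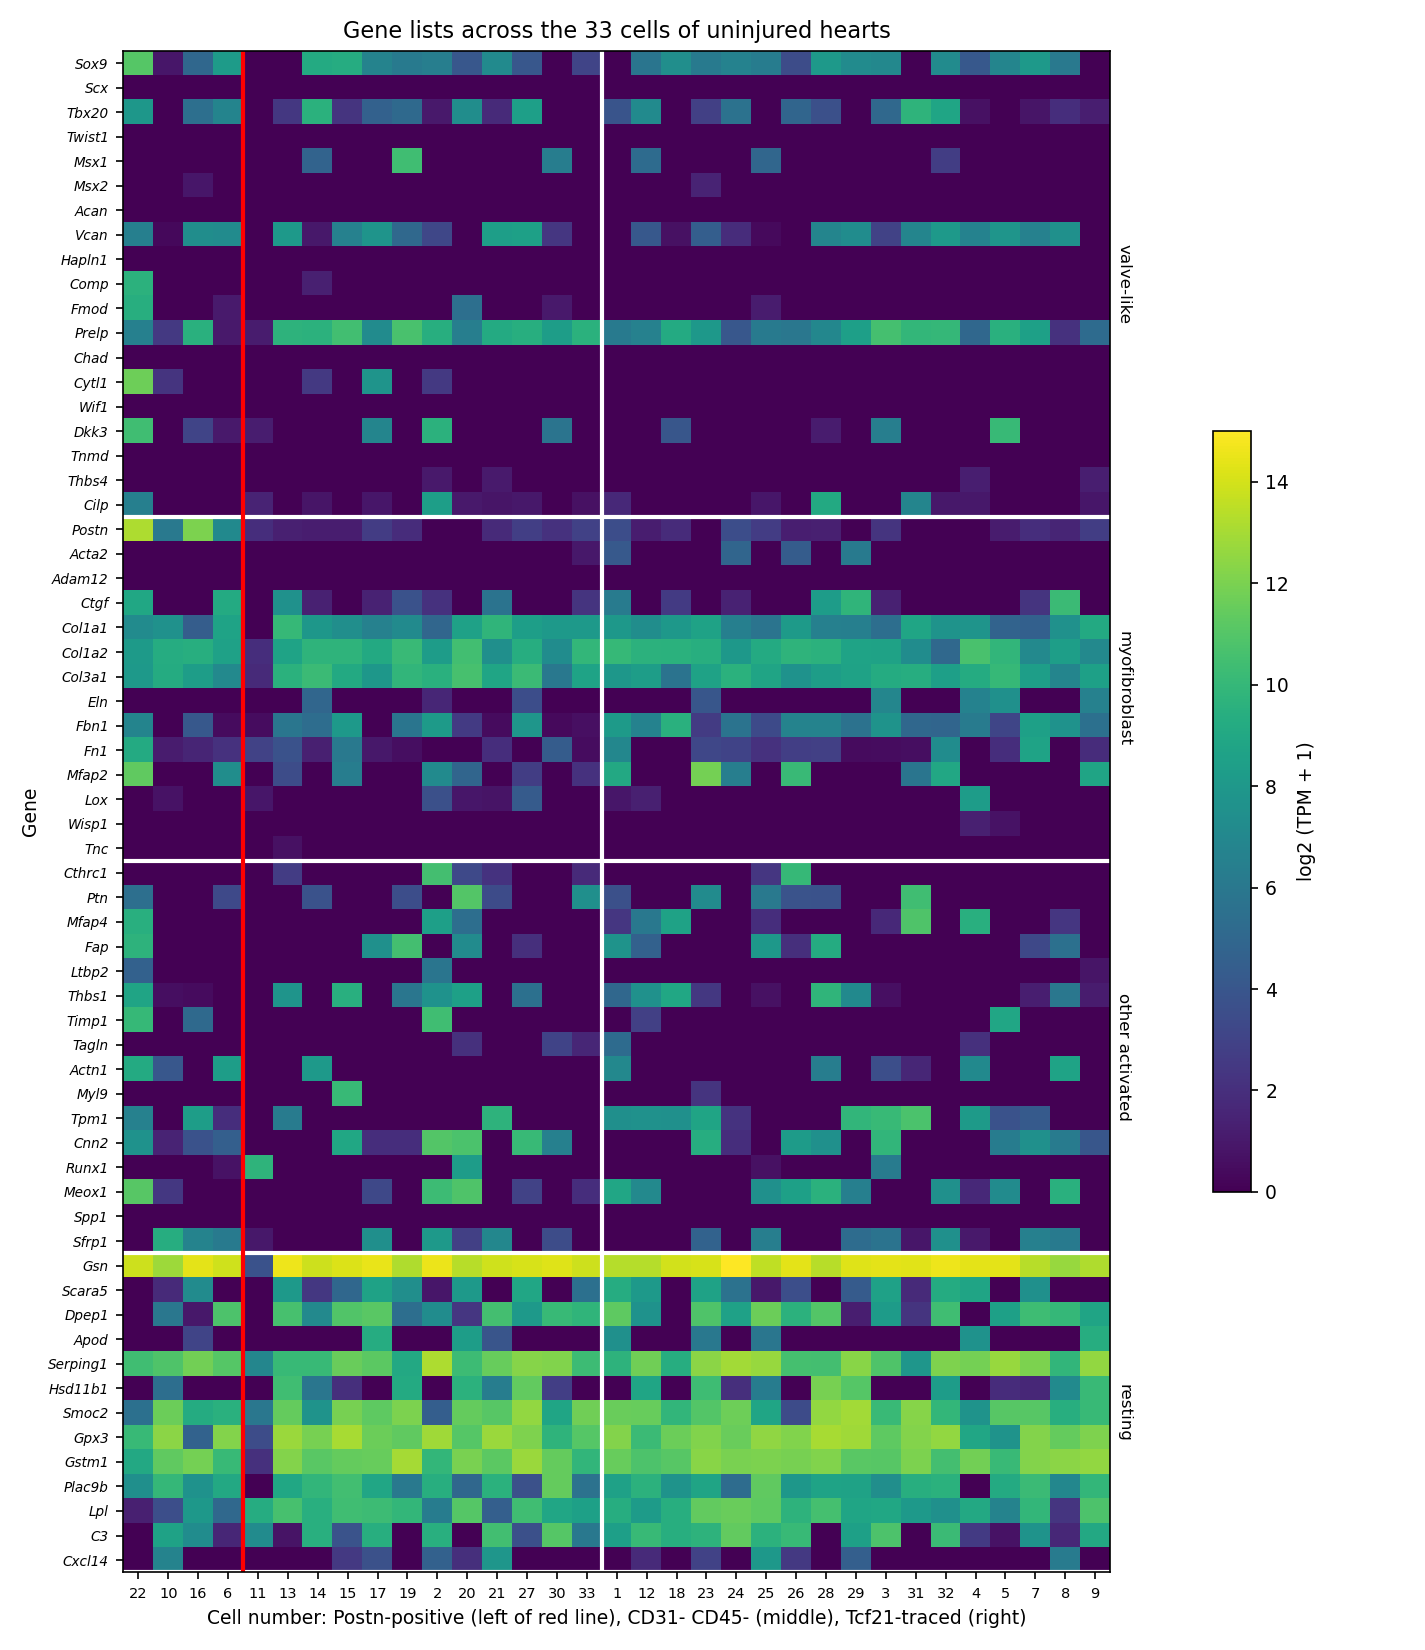
Colour gives log2 (TPM+1) of each gene (vertical axis, grouped by list) in each of the 33 cells (horizontal axis), with the 4 Postn-positive cells left of the red line, then the CD31-negative and CD45-negative cells and, right of the white line, the Tcf21-traced cells. Cell 22 has 9 of 19 valve-like and 10 of 16 further activation genes above 5 TPM, cell 10 has 0 and 2, and cell 11, beside the red line, has Gsn at 3.77.

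For the myofibroblast genes, the question was whether Postn in an uninjured heart came with the rest of the list. Without Postn, the mean of the 13 other genes was 4.6 in cell 22, 2.15 in cell 10, 2.15 in cell 16 and 3.34 in cell 6. In the 29 it was between 0.63 and 4.73 with a median of 3.13, and from 2.0 without cell 11. Relative to that median the 4 were at 1.47, -0.98, -0.98 and 0.21, where the SD among the 29 was 0.76. Cell 22 was therefore near the top of the 29, with 1 of them higher, while cells 10 and 16 were near the bottom, with 26 higher in each case. The 27 Postn-traced infarct cells had 4.39 to 8.71 with a median of 7.19. Of these, 1 was lower than cell 22 and none was lower than cells 10, 16 or 6.

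By gene, 7 of the 13 were detected in cell 22, 3 in cell 10, 4 in cell 16 and 5 in cell 6, and 1 to 8 in the 29 (3 to 8 without cell 11). Acta2 (smooth muscle actin), Adam12, Eln (elastin), Wisp1 and Tnc (tenascin C) were listed at 0 in all 4. Lox, the gene of the enzyme that cross-links collagen, was at most 0.71. Acta2, Eln and Lox were detected in 4, 7 and 3 of the 29, and Adam12, Wisp1 and Tnc in none. In the Postn-traced infarct cells Lox was detected in 25, Tnc in 19 and Acta2 in 15 of 27. Those cells had 2155 to 4541 genes over 5 TPM with a median of 3643, beside the median of 2170 in the 29. The part of that in their myofibroblast values was not tested. The high Postn of cell 16 came with Fn1 at 1.57 and with Ctgf and Mfap2 at 0, and the high Postn of cell 22 with Fn1 at 9.19, Ctgf at 8.94 and Mfap2 at 11.35.

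The 4 had few genes in common that the 29 lacked, but other sets of 4 cells were not counted for reference. Of 5411 genes detected in at least 1 of the 4, 2994 were detected in exactly 1 of them (55.3%) and 495 in all 4. Of the 495, 2 were detected in at most 3 of the 29. They were Anp32e, the gene of a histone chaperone, at 8.25, 5.27, 5.98 and 9.86 in cells 22, 10, 16 and 6, and Ccnc, the gene of cyclin C, at 4.03, 6.89, 4.39 and 4.78. Each was detected in 2 of the 29, in which Anp32e reached 5.70 and Ccnc 7.83. Postn, which the label of the 4 names, was the 1 gene of the 11276 in which every one of the 4 was above all 29.

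By means, 922 of the 11276 genes were more than 2 log2 units higher in the 4 (8.18%) and 336 more than 2 lower (2.98%), and the median difference over all of them was -0.22. These counts mark size, carry no test and depend on how the means are taken. With means on the linear scale they were 1163 higher and 4804 lower, so that more genes were lower than higher. With pseudocounts of 0.1 and 5 they were 1736 and 419 higher, and 880 and 113 lower. Without cell 16, 511 were lower. Among genes detected in at least 50% of the 4, the 10 with the largest rise were Postn (8.04), Anp32e (7.01), Capns1, Spcs3, Slc29a1, Coa3, Hnrnpm, Pdcd6, Tceal8 and Coq10b (5.88). Apart from Postn, which the label names, in each of them at least 1 of the 4 overlapped the 29. Among genes detected in at least 50% of the 29, the 10 with the largest fall were Klf6 (-5.83), Col4a1 (-5.43), Uqcrh, Cox20, Ddah2, Wbp5, Mrps21, Mgst1, Lpl (-4.59) and Paip2 (-4.34). Klf6 encodes a zinc finger transcription factor and Col4a1 a chain of type IV collagen. Klf6 was at most 0.72 in the 4 and was detected in 22 of the 29, but others of the 29 were listed at 0.

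Of 11 basement membrane genes, 5 were more than 2 log2 units lower by mean in the 4, beside 2.98% of all genes, and none was that much higher, beside 8.18%, with a median difference of -1.52 beside the -0.22 of all genes. Col4a1 was listed at 0 in cells 22, 16 and 6 and was 1.55 in cell 10, where 25 of the 29 had it detected with a median of 6.56. Lamb1 and Lamc1, which encode laminin chains, differed by -3.35 and -2.71. Nid1 (nidogen 1) was detected in all 4, at 8.05, 8.04, 5.60 and 9.40, below the median of 9.46. Others of the list were above the median of the 29 in some of the 4. Hspg2, the gene of perlecan, was 7.69 in cell 10, where 1 of the 29 was as high, Lama2, a laminin chain gene, was 9.10 in cell 22, and Col4a2, of type IV collagen, was 6.35 in cell 10. The cells had 5, 4, 4 and 5 of the 11 detected, against 4 to 10 in the 28 without cell 11. The 14 resting genes had 5 more than 2 lower and none that much higher, beside 2.98% and 8.18% of all genes, with a median of -1.23.

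The TGF-beta list leaned the other way. Of its 12 genes detected in the capture, 5 were more than 2 log2 units higher by mean in the 4 and none that much lower, beside 8.18% and 2.98% of all genes, with a median difference of 1.16. Tgfb2, a ligand gene, was 7.18, 7.46 and 7.32 in cells 22, 16 and 6 and was listed at 0 in cell 10, where 7 of the 29 had it detected. Tgfb3 was 8.50 in cell 22 and 9.59 in cell 16 and was listed at 0 in cells 10 and 6. Cells 22 and 6 had 8 of 13 genes detected, the highest number found in the 29, and cells 10 and 16 had 6, against a median of 5. The receptor gene Tgfbr2 was 6.63, 6.81, 0.55 and 7.35, lowest in cell 16. In the valve-like list 4 of the 10 detected genes were more than 2 higher by mean and 1 was that much lower, beside 8.18% and 2.98% of all genes. Without Comp, which entered through cell 22 alone, they were 3 and 1 of 9. The median of the 10 was 1.43, and those 4, Comp, Fmod, Cytl1 and Dkk3, had their highest value in cell 22.

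Among the immediate early genes, which respond within minutes to stimuli such as tissue dissociation, cell 22 had the lowest Fos of the 33 cells, 8.69 where the 29 ranged from 8.94 to 13.65. Cell 10 had the highest Egr1 at 13.51 and cell 6 the highest Zfp36 at 11.78, with the highest of the 29 at 13.46 and 11.52. Of 14 such genes 9, 8, 10 and 11 were detected in cells 22, 10, 16 and 6, within the 6 to 13 of the 29. Of 8 cell cycle genes, Tyms at 4.34 in cell 6 was the 1 detected in any of the 4. Of 10 secreted Wnt modulators 2, 1, 3 and 1 were detected, and Frzb at 10.13 in cell 22 was above the highest of the 29 at 9.38. Of 12 elastic fibre genes 6, 3, 5 and 6 were detected, and of 14 collagen crosslinking and processing genes 5, 4, 3 and 7. Of 8 fibrillar collagens 5, 5, 5 and 3 were detected.

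Of the markers of other cell types, at most 1 of each list was detected in any of the 4. Of the 8 blood cell markers each cell had all listed at 0, and of 7 cardiomyocyte markers none was detected. The pericyte list had 1 of 7 detected in each of the 4, Pdgfrb, at 8.59, 2.76, 4.08 and 6.09, and the value in cell 22 was above the highest of the 29 at 8.36. The pericyte markers Rgs5, Kcnj8, Cspg4, Notch3 and Mcam were listed at 0 in all 4, so the summed level of that list, 385, 5.80, 15.96 and 67.3 TPM, was nearly all Pdgfrb, which fibroblasts express too. Of 6 endothelial markers, Tek was 6.83 in cell 16 and 7.03 in cell 6 and was detected in 12 of the 29. Pecam1, the gene of CD31, was 2.12 in cell 6, under 5 TPM but listed at 0 in all 29, and Kdr and Emcn were listed at 0. The endothelial sums were 0, 0, 113 and 133 TPM in cells 22, 10, 16 and 6. The smooth muscle list had Smtn at 10.02 in cell 10, above the highest of the 29 at 9.90, and at 2.98 in cell 16. Its sums were 0, 1041, 6.87 and 0 TPM, the second above the highest of the 29 at 957 TPM, and Acta2, Cnn1 and Tagln were listed at 0 in all 4. Tbx18 of the epicardial list was 4.28 in cell 16, and Cdh19 of the Schwann cell list was 6.18 in cell 22 and 5.97 in cell 6, with Sox10 listed at 0 in all 4. The part of these genes in the other differences was not tested.

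Over all genes, the 4 cells differed from their neighbours about as much as any cell of the capture differed from the rest. More than 1 log2 unit above each of the other 32 cells, cell 22 had 203 genes, cell 10 had 158, cell 16 had 187 and cell 6 had 217. The same count was 144 to 226 in the 28 others and 339 in cell 11. The 10 genes of cell 22 with the largest lead over the 29, from 10.28 down to 9.24, were Gm17455, BC065403, Stk19, Tmem177, an entry named NADH-cytochrome b5 reductase, Nqo1, Dhh, Postn, Fam229b and Crispld1. Dhh encodes the secreted ligand desert hedgehog and was 9.74 in cell 22 and listed at 0 in the 29, and Nqo1, a quinone reductase gene, was 9.80 and likewise at 0 in the 29. In cell 10 they were Wdr91, Atp5s, Cers3, Zfp954, Tmem186, Tmem51os1, Tab1, Ccdc91, BC056174 and Hmces, with leads from 10.42 to 8.09. In cell 16 they were Rhox5, Postn, Cib2, Zfp37, Nlk, C1rl, Rnf121, Dok4, AV051173 and Usp12, with leads from 8.76 to 6.86. In cell 6 they were Fam195a, Naprt1, Dbr1, 2900008C10Rik, Mpst, AK006610, Lekr1, Ttc38, Slc10a3-ubl4 and Spata2, with leads from 10.23 to 8.25. Of 801 genes so raised by more than 1 log2 unit in any of the 4, 57 were raised in more than 1 of them. Of the 57, 4 were raised in 3 of the cells and Postn, which the label names, in all 4. The 4 raised in 3 cells, named after their values were seen, were Coq10b, Mut, Pck2 and Sulf2, the last an extracellular sulfatase gene at 8.13, 8.43 and 8.41 in cells 22, 16 and 6.

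**Figure D4:**
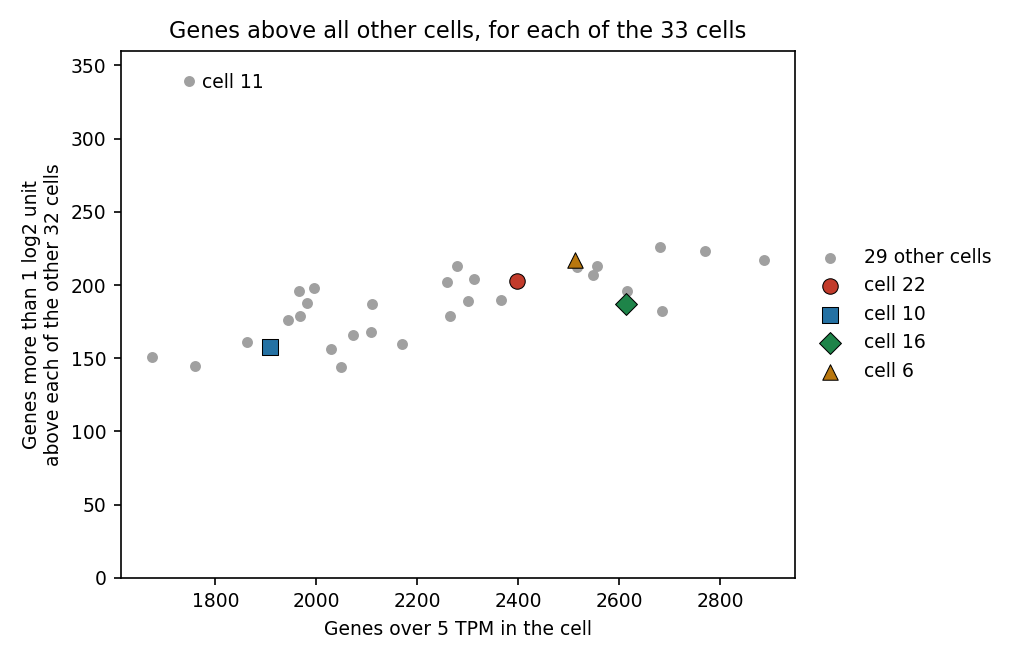
For each of the 33 cells, the number of genes over 5 TPM (horizontal axis) and the number of genes more than 1 log2 unit above every other cell (vertical axis), with the 4 Postn-positive cells in colour. The 4 lie at 158 to 217 genes among the others, and cell 11 lies apart at 339.

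Values of 0 have to be read with care, because genes that every cell uses were also listed at 0. Of 296 genes detected in at least 26 of the 29, 15 were not detected in cell 22, 24 in cell 10, 10 in cell 16 and 13 in cell 6. Counted in the same way against their fellows, the 29 lacked 1 to 93 such genes with a median of 16, and 1 to 31 without cell 11. In cell 22 those with the highest median in the 29 were Rpl14, Rpl34, Marcks, Lpl and Ifi27, the first pair being ribosomal protein genes detected in all 29. In cell 10 they were Mfap5, Dusp1, AK140265 and Mrfap1, in cell 16 Apoe, Calu, Ece1 and Rpl27, and in cell 6 Rpl7a, Rpl34, Aldoa, Ogn and Prelp. A single gene at or near 0 in a single cell therefore says little, and the low values of single genes given above are no more than that.

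Across 7843 genes, each cell was compared with the mean profiles of 4 classes. The Pearson correlation with the mean of the resident Tcf21-traced cells was 0.549, 0.569, 0.589 and 0.555 in cells 22, 10, 16 and 6, and with the mean of the Postn-traced infarct cells 0.550, 0.542, 0.551 and 0.532. With the mean of the resident CD31-negative and CD45-negative cells it was 0.537, 0.559, 0.564 and 0.548. With that of 24 infarct cells labelled Postn-negative it was 0.555, 0.562, 0.591 and 0.558, the highest of the 4 classes in cells 22, 16 and 6, as in 16 of the 29. The means rest on 17 Tcf21-traced, 27 Postn-traced, 12 resident CD31-negative and CD45-negative and 24 Postn-negative cells. The part of these unlike numbers in the order of the classes was not tested. The mean of the 12 includes cell 11 and was the highest in none of the 4 or the 29. The correlations run over genes of single cells, and genes do not replicate one another. The value for the Tcf21-traced mean minus that for the Postn-traced mean was -0.00112 in cell 22, lower than in all 29, where it ranged from 0.0120 to 0.0566 with a median of 0.0382. It was 0.0273, 0.0382 and 0.0226 in cells 10, 16 and 6. The Postn-traced infarct cells had a median of -0.0643, and 1 of the 27 was above cell 22. By Spearman's correlation the difference of cell 22 was 0.00990 and so had the other sign. Between the 4 cells, the pairwise correlations were 0.341 to 0.372, and the 406 pairs of the 29 had 0.256 to 0.427 with a median of 0.359 (from 0.318 without cell 11). The correlations of the 4 lay inside that range.

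**Figure D5:**
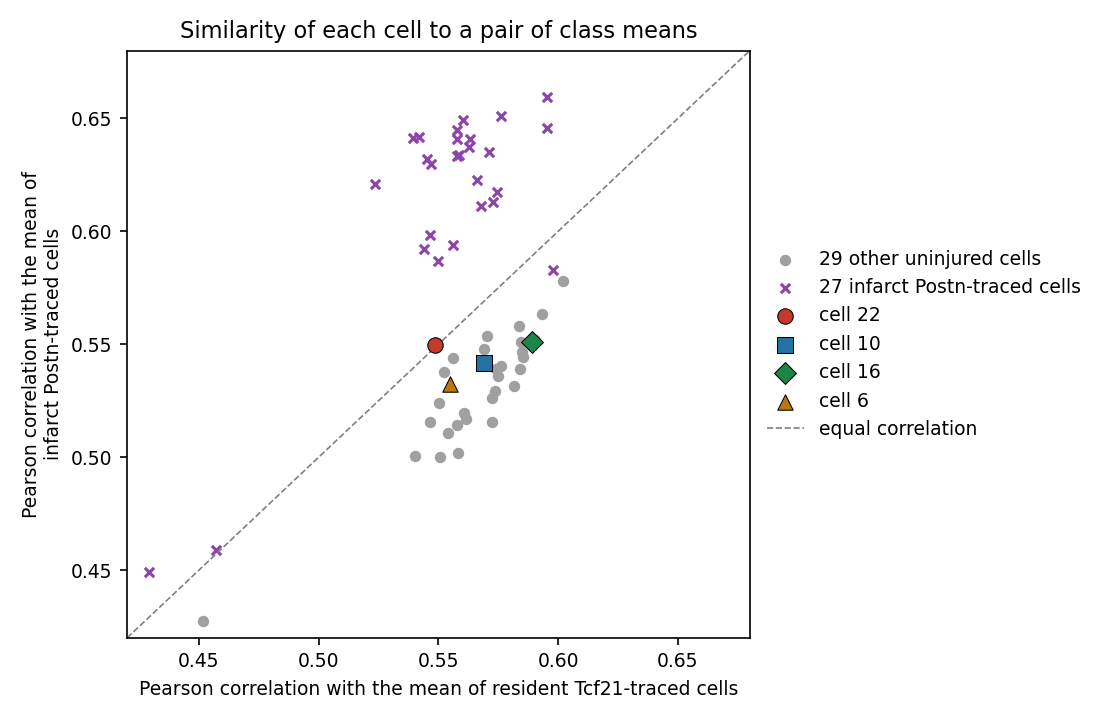
Each point is 1 cell, placed by its Pearson correlation with the mean of the resident Tcf21-traced cells (horizontal axis) and with the mean of the infarct Postn-traced cells (vertical axis), with equal correlation as a dashed line. Cell 22 lies just above the line at 0.549 and 0.550, all 29 other uninjured cells lie below it, and so does 1 of the 27 traced cells.

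The means of the 4 combine 1 cell of the first label with 3 of the second, and neither label can be described beyond these cells. A larger number of Postn-positive cells from named animals was not analysed here.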

How the data were processed

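Single cells were measured by RNA sequencing, and the authors deposited their expression as log2 (TPM+1), with 17171 genes in the table. The submitters' processing notes name Bowtie 1.0.0, eXpress 1.5.1 and mm10 without their roles. Converted back, the TPM of the 33 cells of uninjured hearts sum to between 999320 and 1000000, so a cell's read depth cannot be read from them. The values were used as deposited, with the authors' pseudocount of 1. A further 3 columns without a sample were not used. Members and gene lists were chosen with earlier results of these data known.

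Named genes were those of the lists and, for each cell, the 10 with the largest lead over the highest of the 29 and the 5 with the highest median among genes detected in at least 26 of the 29 and not in the cell. For the 4 together they were the 10 largest rises and falls in mean and the genes detected in all 4 and at most 3 of the 29. Plac9a, Cdh5, Cldn5 and Nppa of the lists had no entry under these symbols. Some genes that this rule or the lists take are not reported here. Doublets were not assessed. Positions are those of GENCODE for GRCm38, the assembly of mm10. The code for the counts and differences was checked on simulated data for finding planted differences, which does not show how many genes pass without any. Alternatives changed 1 choice at a time, and leaving out cell 11 and taking genes over 5 TPM in at least 1 of the 29 were chosen after seeing the data. Computation was in Python 3.11.15 with pandas 2.3.3 and NumPy 2.4.6, intervals came from SciPy 1.17.1, and figures were drawn with Matplotlib 3.10.9.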

Additional observations from a re-analysis of the deposited data

Results flagged for a closer look

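For 31 measures, namely 3 values per cell and the genes of the fibroblast, valve-like and myofibroblast lists that varied, the 4 cells were examined for 1 that lay far from the other 3 relative to the range of the 4. Such a distance was found for 9 genes. With continuous values chance would give it in about 1 of 20, but that share does not hold here, and nothing is read from the number of genes. Comp (9.62) and Cilp (6.47) in cell 22, Msx2 (0.90) in cell 16 and Lox (0.71) in cell 10 were each listed at 0 in the other 3 cells. A single value over 0 beside 3 zeros always has the largest such distance, whatever its size, and those of Msx2 and Lox were under 5 TPM. Tcf21 (listed at 0 in cell 22) is named by the label of the other 3 cells. Of the remaining genes, Fmod (9.39) and Fn1 (9.19) were high in cell 22, Fbln1 (0.62) was low in cell 16 and Vcan (0.32) was low in cell 10.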

How the results depend on the processing

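Of 100 alternative values for 18 results, 79 kept their direction and either, for a count, stayed within 1.5 times or, for a difference, moved by less than 1 SD among the 29 cells. Of these, 7 equal the reported value and say nothing of stability, 4 of them because no cell had under 50% of the median number of genes and none was left out. A small difference can change by a larger factor within that SD: the myofibroblast mean of cell 6, 0.21 above the median of the 29, was 0.083 above that of the 17 Tcf21-traced cells and 0.44 above that of the 12 others, and its difference in similarity went from 0.0226 to 0.0130 over all genes. Counting any value over 0 as detection moved the genes per cell to 3710, 3046, 4064 and 3806 in cells 22, 10, 16 and 6. With any lead, the genes above the 29 were 392, 319, 375 and 403, since a smaller lead takes more genes. Among genes over 5 TPM in at least 1 of the 29 they were 141, 110, 126 and 154, since fewer genes are tested. The genes more than 2 log2 units higher by mean were 1736 with a pseudocount of 0.1, 419 with a pseudocount of 5 and 439 among genes detected in at least 25% of the 33 cells, which tests fewer genes. With means on the linear scale 1163 were higher and 4804 lower, so the balance turned, and the cause was not tested. Those lower by mean were 880 with a pseudocount of 0.1 and 113 with a pseudocount of 5; the cause was not tested. Leaving out each of the 4 cells in turn gave 1167 to 1353 genes higher and 423 to 511 lower, the latter without cell 16. By Spearman's correlation the difference in similarity of cell 22 turned from -0.00112 to 0.00990 and that of cell 16 moved from 0.0382 to 0.0518; the cause was not tested. The means of the 13 myofibroblast genes relative to the 29 kept their direction in all 4 cells under the 6 alternatives that could change them, without cell 11 too.

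No paired analysis was possible because no test was run and the cell numbers name no animal. The limits are those of 4 cells of 1 capture: a gene can be listed at 0 in a cell that expresses it, the reads per cell are not known here, and no animal is named for any cell.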
